A study of Mus musculus with 4 samples.

Results

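Complement genes were examined in the hippocampus of Lsd1 knock-in (KI) mice and their wild type (WT) littermates. The genes were a fixed list of 9 symbols, C1qa, C1qb, C1qc, C4b, C3, C3ar1, C5ar1, Cd59a and Serping1, of 26328 genes listed in at least 1 sample. They were proposed with the KI and WT values of these samples in view, so their levels and differences are given as a description, without a test. Of the 9 genes, 3 (C1qa, C1qb and C1qc) lie beside Kdm1a, the gene that encodes LSD1, and 6 lie on other chromosomes.

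Poly(A) RNA of hippocampal tissue was sequenced from 2 WT and 2 KI samples, all from male mice of the C57BL/6 strain. KI mice carry Lsd1 SA/SA, in which a serine of the histone demethylase LSD1 that PKCα phosphorylates is replaced by alanine, and WT mice carry the unchanged gene. Ages of 8 to 15 weeks were stated for the mice of the behavioural experiments and not separately for those sequenced. The number of mice behind each sample was not stated, so the spread between samples, which may in part be technical, is the only error measured. Samples held about 8830000 (WT replicate 2) to 14950000 (KI replicate 2) mapped reads, as worked out from the whole-read steps of the deposited values. Values are RPKM, reads corrected for the exon length of a gene (per kb) and for the depth of the sample, and a gene absent from a sample was given 0. The neuronal markers Camk2a (570 to 612 RPKM), Slc17a7 (386 to 415 RPKM) and Snap25 (300.4 to 322 RPKM) were high in all 4 samples of this neuron-rich tissue. They come from a list of 8, of which 0 lay wholly above WT in KI, 4 wholly below and 4 overlapped. Prox1 was at 17.3 and 16.9 RPKM in WT and at 10.2 and 13.1 RPKM in KI. C1ql2 was at 41.8 and 44.0 RPKM in WT and at 30.7 and 34.2 RPKM in KI. Wfs1 was at 42.2 and 41.2 RPKM in WT but at 28.6 and 50.9 RPKM in KI. Whether the samples held the same share of each hippocampal region, and any part of this in the C1q values, was not tested.

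Complement is a set of secreted proteins that tag surfaces and recruit phagocytes. In the classical pathway, C1q, a complex of the chains C1qa, C1qb and C1qc, binds a target and its attached proteases cleave C4 and C2, which leads to cleavage of C3. The fragments of C3 and C5 act on receptors such as C3ar1 and C5ar1, and inhibitors such as Cd59a and Serping1 hold the cascade in check. In the brain, C1q is made mainly by microglia, and C1q and C3 take part in the removal of synapses.

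The C1q genes form a compact cluster on the minus strand of chromosome 4 (GRCm38). C1qb (chr4:136880129-136886187), C1qc (chr4:136889804-136893065) and C1qa (chr4:136895917-136898803) span 18.7 kb, with gaps of 3.62 kb and 2.85 kb between neighbours. Kdm1a (chr4:136550540-136602723) lies 277 kb from C1qb, 287 kb from C1qc and 293 kb from C1qa, and Ephb2 lies between Kdm1a and the cluster. Promoter sequences of RefSeq (GRCm38.p6), from 250 bases before to 50 bases after the start site, were matched for 6 of the 9 genes, and those of C1qa, C4b and Serping1 were not used here. Shown 5′ to 3′ are the promoters of those genes whose KI values lay wholly above the WT values and for which a sequence was matched, C1qb (minus strand, chr4:136886151-136886450), C1qc (minus strand, chr4:136892865-136893164) and Cd59a (plus strand, chr2:104095551-104095850). The RefSeq start site of C1qc lies inside the gene bounds given above, so part of the bases counted as before it lie within the gene. Capitals mark matches to the motifs searched.

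C1qb: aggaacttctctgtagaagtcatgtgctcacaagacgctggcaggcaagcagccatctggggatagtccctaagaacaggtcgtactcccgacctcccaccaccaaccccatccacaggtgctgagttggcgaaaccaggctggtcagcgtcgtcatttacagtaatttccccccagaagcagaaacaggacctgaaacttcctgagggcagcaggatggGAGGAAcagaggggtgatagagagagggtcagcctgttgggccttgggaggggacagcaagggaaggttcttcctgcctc

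C1qc: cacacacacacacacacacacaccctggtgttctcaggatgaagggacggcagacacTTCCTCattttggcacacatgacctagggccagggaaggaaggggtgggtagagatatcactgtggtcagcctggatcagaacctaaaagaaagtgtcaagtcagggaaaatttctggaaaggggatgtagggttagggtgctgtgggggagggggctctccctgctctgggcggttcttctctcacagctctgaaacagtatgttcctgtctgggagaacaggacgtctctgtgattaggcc

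Cd59a: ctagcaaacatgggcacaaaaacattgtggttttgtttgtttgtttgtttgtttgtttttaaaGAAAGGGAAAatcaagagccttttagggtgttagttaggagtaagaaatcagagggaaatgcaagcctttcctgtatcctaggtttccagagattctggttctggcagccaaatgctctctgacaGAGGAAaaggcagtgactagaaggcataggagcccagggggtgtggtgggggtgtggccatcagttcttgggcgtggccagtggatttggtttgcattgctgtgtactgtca

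Motifs were searched on both strands as letters only. GAGGAA, an ETS core of the type bound by the myeloid factor PU.1, started at base -30 of the C1qb promoter and, as TTCCTC on the other strand, at base -193 of the C1qc promoter, and at base -62 of the Cd59a promoter. It was thus present in 3 of 6 matched promoters, and in 28.3% of all 32851 promoters of the same length. GAAANNGAAA, the core of the interferon-stimulated response element, was found in the Cd59a promoter alone of the 6, at base -187, and in 3.4% of all promoters. It did not overlap GAGGAA there. TTCNNNGAA (GAS, 8.3% of all promoters) and CACGTG (E-box, 7.2%) were in none of the 6. TTGCNNAA (C/EBP, 10.8%) was in the C3 promoter, and TATAAA (13.6%) in those of C3 and C3ar1. A match is a description of the letters in this window and not a bound site.

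The 9 genes differed widely in level. By mean RPKM over the 4 samples, which corrects for length, the order was C1qa (34.9), C1qb (27.7), C1qc (15), C4b (8.84), Serping1 (2.95), Cd59a (1.32), C3 (0.503), C3ar1 (0.388) and C5ar1 (0.208). C1qa was thus higher than 90.5% of the 18436 genes that reached 0.5 RPKM in 2 or more samples, and C3 was higher than only 2.13% of them. Neighbours in this order whose ranges over samples overlapped were C1qa with C1qb, and C3 with C3ar1, although C1qa was above C1qb within every sample. C5ar1 lay just under C3ar1 (highest value 0.232 RPKM against lowest value 0.237 RPKM), a gap well inside the counting error of a few reads. In all, 7 genes passed this filter, and C3ar1 and C5ar1 did not.

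**Figure D1:**
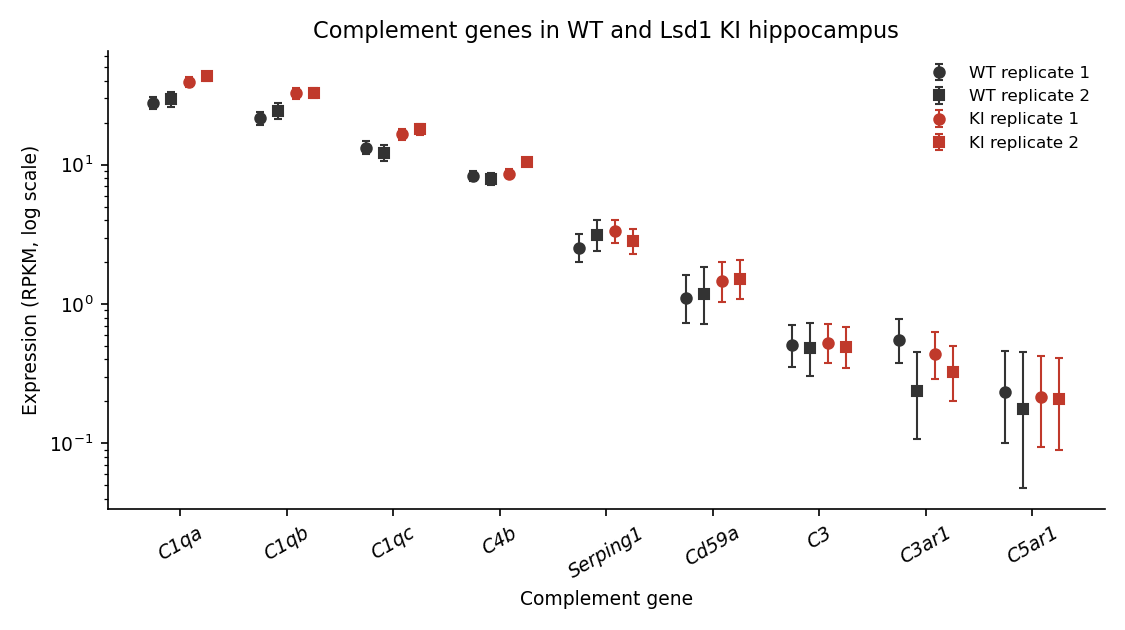
Expression of the 9 complement genes in RPKM on a log axis, one point per sample (WT black, KI red, circles replicate 1, squares replicate 2) with exact Poisson 95% intervals, which cover counting error only. Both KI points of C1qa (39.2 and 43.2 RPKM), C1qb and C1qc lie above both WT points, whereas the points of C3, C3ar1, C5ar1 and Serping1 overlap.

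In all 3 C1q genes, each KI sample exceeded each WT sample. C1qa, the A chain of C1q, was at 27.7 and 29.4 RPKM in WT and at 39.2 and 43.2 RPKM in KI. C1qb, the B chain, was at 21.4 and 24.4 RPKM in WT and at 32.5 and 32.6 RPKM in KI. C1qc, the C chain, was at 13.2 and 12.1 RPKM in WT and at 16.5 and 17.9 RPKM in KI. In no C1q gene did the groups overlap, and the lower KI sample was KI replicate 1 each time. The ratio of the KI to the WT mean was 1.44 for C1qa (41.2 ± 2.77 against 28.6 ± 1.18 RPKM, SD, n = 2 each), 1.42 for C1qb (32.6 ± 0.038 against 22.9 ± 2.06) and 1.36 for C1qc (17.2 ± 1.00 against 12.7 ± 0.749). On the log2(RPKM + 1) scale, on which changes of low genes are understated, the differences were 0.51 (SE 0.07) for C1qa, 0.49 (SE 0.07) for C1qb and 0.42 (SE 0.07) for C1qc. The median difference over all 18436 genes was 0.01 on the same scale, and its 5th to 95th percentiles ran from -0.25 to 0.36. C1qa, C1qb and C1qc stood at percentiles 97.5, 97.2 and 96.2 of the signed differences.

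The reads behind the C1q values set their precision. C1qa rested on 387 and 270 reads in WT and on 587 and 671 reads in KI, and its exact Poisson 95% intervals were 25 to 30.6 and 26.0 to 33.1 RPKM in WT and 36.1 to 42.6 and 40.0 to 46.6 RPKM in KI. For C1qb the WT intervals (19.1 to 24.0 and 21.3 to 27.7 RPKM) also lay below the KI intervals (29.8 to 35.5 and 29.9 to 35.5 RPKM). For C1qc the upper bound of WT replicate 1 was 14.7 RPKM and the lower bound of KI replicate 1 was 15.1 RPKM. Reads amplified by PCR are not independent molecules, so these intervals cover counting error only.

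The C1q chains moved in near-constant proportion. C1qa made up 44.5% and 44.6% of the summed C1q RPKM in WT and 44.4% and 46.1% in KI. C1qb made up 34.4% and 37.0% in WT and 36.8% and 34.8% in KI, and C1qc 21.2% and 18.4% in WT and 18.7% and 19.2% in KI. The shares of the groups overlapped for all 3 chains, with group means of 44.5% and 45.3% for C1qa, 35.7% and 35.8% for C1qb, and 19.8% and 18.9% for C1qc. The summed C1q level was 62.4 and 65.9 RPKM in WT and 88.3 and 93.7 RPKM in KI, on 711 to 1719 reads, a ratio of 1.42 between group means (91.0 ± 3.80 against 64.2 ± 2.49 RPKM, SD, n = 2 each).

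C4b, the main mouse C4 gene and the substrate of the C1 proteases, differed less. It was at 8.30 and 7.94 RPKM in WT and at 8.63 and 10.5 RPKM in KI. The KI values both lay above the WT values, but KI replicate 1 was close to WT replicate 1 and KI replicate 2 stood apart. The ratio of means was 1.18 (9.55 ± 1.30 against 8.12 ± 0.256 RPKM) and the log2 difference was 0.21 (SE 0.10), which fell to 0.08 without KI replicate 2 and rose to 0.33 without KI replicate 1. C4b (chr17:34728380-34743882) shares most of its sequence with its paralog C4a, which was at 0.846 and 0.911 RPKM in WT and at 1.10 and 1.04 RPKM in KI (limma adjusted p = 0.726), and how reads common to both were assigned was not stated, so the split between them is uncertain.

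C3, on which all complement pathways converge, was barely detected and nearly constant. It was at 0.507 and 0.485 RPKM in WT and at 0.527 and 0.494 RPKM in KI. The groups overlapped, on 22 to 39 reads a sample. The log2 difference was 0.01 (SE 0.12) and the ratio of means 1.03. Each value carried a counting error of 16.0% to 21.3% of itself, so only a large difference could have been seen at this depth.

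The anaphylatoxin receptors lay below the filter. C3ar1, the receptor of the C3a fragment, was at 0.554 and 0.237 RPKM in WT and at 0.436 and 0.326 RPKM in KI (9 to 32 reads). C5ar1, the receptor of the C5a fragment, was at 0.232 and 0.176 RPKM in WT and at 0.216 and 0.208 RPKM in KI (4 to 8 reads). For both receptors the KI values lay within the range of the WT values. The ratios of means were 0.964 for C3ar1 and 1.04 for C5ar1, and no difference between the groups was detectable at this depth.

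Of the inhibitors, Cd59a differed between the groups without overlap and Serping1 did not. Cd59a, which blocks assembly of the membrane attack complex, was at 1.11 and 1.19 RPKM in WT and at 1.46 and 1.51 RPKM in KI. The ratio of means was 1.29 (1.49 ± 0.039 against 1.15 ± 0.054 RPKM) and the log2 difference 0.21 (SE 0.11). These values rest on 19 to 41 reads a sample, and the counting intervals of the groups overlapped (0.732 to 1.62 RPKM in WT replicate 1, 1.09 to 2.05 RPKM in KI replicate 2). Its paralog Cd59b, of similar sequence, was at 0.229 and 0.436 RPKM in WT and at 0.535 and 0.566 RPKM in KI (limma adjusted p = 0.669). Serping1, the C1 inhibitor, which blocks the C1r and C1s proteases, was at 2.53 and 3.12 RPKM in WT and at 3.32 and 2.82 RPKM in KI. Its groups overlapped, with a ratio of means of 1.09 and a log2 difference of 0.09 (SE 0.12) that was -0.02 without WT replicate 1.

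Over the whole list, the KI values lay wholly above the WT values in 5 of the 7 genes that passed the filter (C1qa, C1qb, C1qc, C4b and Cd59a) and wholly below in 0. Among all 18436 genes tested, 24.0% had both KI values above and 18.1% had both below. The 3 C1q genes also differed by at least 1.2-fold on the log2(RPKM + 1) scale, as did 6.80% of all genes in that direction and 3.33% in the other. Since the genes were proposed from this contrast, nothing is read from these counts. With limma, no gene of the 18436 passed an adjusted p of 0.1 with at least 1.2-fold (0%, 0 genes). At an unadjusted p under 0.05, limma gave 1161 genes higher in KI (6.30%) and 613 lower (3.33%), and no other tool was run. An exact permutation test of 2 against 2 samples cannot give a p below 0.333.

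The C1q genes, next to Kdm1a, and the complement genes on other chromosomes were then set side by side. In each sample, the mean log2(RPKM + 1) of the C1q genes was compared with that of C4b, C3, Cd59a and Serping1, the 4 unlinked genes above the filter. The linked genes exceeded the unlinked by 2.71 in both WT samples and by 3.02 and 3.09 in the KI samples. This distance was therefore 0.34 larger in KI, or 0.31 larger with a pseudocount of 0.1. Since the genes were proposed from this contrast, the distance is a description without a test. Of the unlinked genes, C4b (0.21) and Cd59a (0.21) stood nearer to C1qc (0.42) than C3 (0.01) did. With a pseudocount of 0.1, Cd59a was at 0.345 and C1qc at 0.441. The level of C1q relative to C4b alone was 7.52 and 8.31 in WT and 10.2 and 8.94 in KI.

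Whether position near Kdm1a went with a difference in other genes was examined in the protein-coding genes within 0.5 Mb. Kdm1a itself was at 11.6 and 11.2 RPKM in WT and at 11 and 11.2 RPKM in KI, a ratio of 0.971 (limma adjusted p = 0.872). The knock-in changes a codon and not the dose of the gene, so the Kdm1a level does not check the genotype labels. Besides the C1q genes, 10 of 15 such genes passed the filter. In 0 of these 10 did the KI values lie wholly above the WT values (24.0% of all genes). In 4 (Asap3, Zfp46, Kdm1a and Ephb2) both were lower (18.1% of all genes), and in 6 (Rpl11, Id3, Hnrnpr, Luzp1, Epha8 and Zbtb40) the groups overlapped. Kdm1a counted as lower only by 11.172 RPKM in KI replicate 2 against 11.177 RPKM in WT replicate 2, a near tie. The median log2 difference of the 10 was -0.01, with a range of -0.38 to 0.07, and limma called 0 of them. At an unadjusted p under 0.05 there was 1, Zfp46, a zinc finger gene, which was lower in KI, as were 3.33% of all genes. Among the 5 genes under the filter, E2f2, a cell cycle transcription factor, had KI values wholly above the WT values, at 0.199 and 0.139 RPKM in WT and 0.313 and 0.370 RPKM in KI, on 6 to 27 reads, and Htr1d, a serotonin receptor gene, had them wholly below.

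Ephb2, an ephrin receptor gene between Kdm1a and the cluster, was at 2.97 and 2.95 RPKM in WT and at 2.71 and 2.77 RPKM in KI (limma adjusted p = 0.785). Epha8, an ephrin receptor gene on the far side of the cluster, was at 0.633 and 0.697 RPKM in WT and at 0.664 and 0.823 RPKM in KI (limma adjusted p = 0.908). The log2 difference was -0.08 (SE 0.08) for Ephb2 and 0.07 (SE 0.13) for Epha8. Epha8 was low, on 29 to 58 reads a sample, so only a large difference could have been seen in it. Whether position near Kdm1a had a part in the C1q difference was not tested. Luzp1 was at 16.6 and 16.9 RPKM in WT and at 17 and 16.8 RPKM in KI, and since its annotation overlaps the end of Kdm1a and no strand setting was stated, reads of the shared stretch cannot be told apart. Zfp46 was lower in KI, at 11.5 and 12.3 RPKM in WT and at 8.37 and 9.45 RPKM in KI, a ratio of 0.750 that did not pass adjustment (limma adjusted p = 0.378). Asap3, at 1.34 and 1.39 RPKM in WT and 1.17 and 0.871 RPKM in KI, was also lower without passing (limma adjusted p = 0.608).

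**Figure D2:**
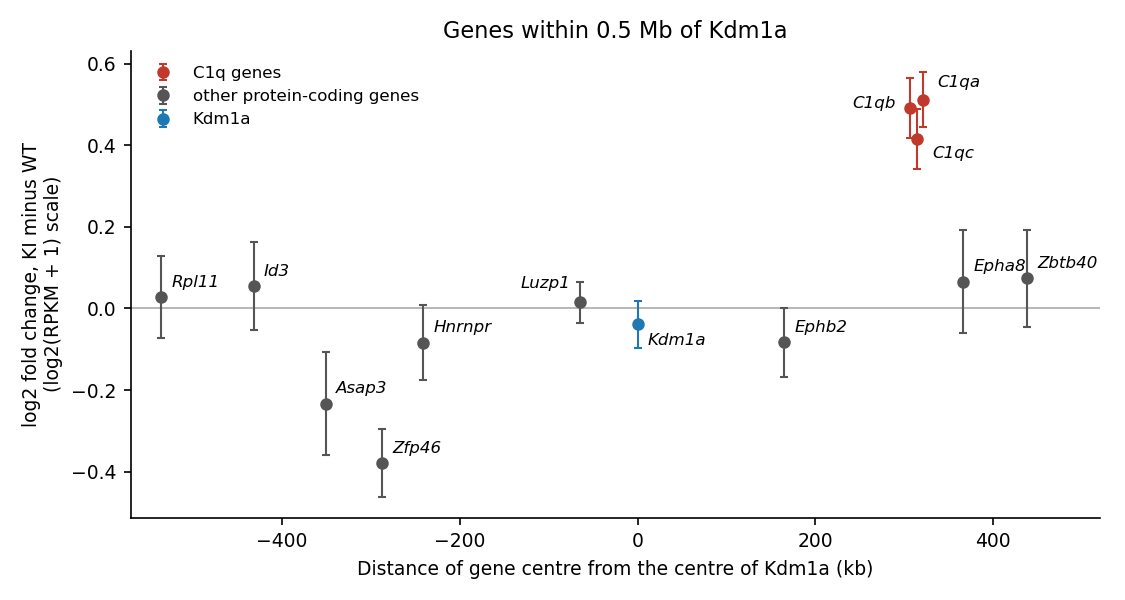
Log2 difference of KI minus WT on the log2(RPKM + 1) scale (vertical axis, bars show SE) against the distance of each gene's centre from the centre of Kdm1a in kb, for the 13 protein-coding genes above the filter whose bodies lie within 0.5 Mb. The C1q genes (0.42 to 0.51) stand above the other genes, which range from -0.38 (Zfp46) to 0.07.

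The rest of the complement system was read from a wider list. A list of 57 cascade genes, of which 54 were listed in at least 1 sample, held 24 genes above the filter besides those described. Of these 24, 5 had KI values wholly above the WT values (20.8%, against 24.0% of all genes), 6 had both below (25%, against 18.1%) and 13 overlapped. Their median log2 difference was -0.02, from -0.19 to 0.22, and limma called 0, with 0 at an unadjusted p under 0.05 (6.30% of all genes higher and 3.33% lower). Cd59b, at low level, had a ratio of means of 1.66, above that of the C1q genes, and a log2 difference of 0.22. The smallest limma adjusted p among them was 0.518. Mbl1, Cfd and C9 were not listed.

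Among the proteases and partners of C1q, C1ra, which encodes the C1r protease, was at 0.650 and 0.618 RPKM in WT and at 0.531 and 0.365 RPKM in KI (limma adjusted p = 0.713). C2, the other substrate of C1s, was at 0.924 and 0.965 RPKM in WT and at 0.790 and 0.881 RPKM in KI (limma adjusted p = 0.856). In both genes the KI values lay below the WT values without passing the test, and C1s1 (0.289 to 0.534 RPKM) was below the filter. In the lectin pathway, Masp2 was at 13.6 and 11.6 RPKM in WT and at 11.2 and 13.8 RPKM in KI (limma adjusted p = 0.983). Masp2 lies on chromosome 4 at 12 Mb from Kdm1a. Masp1 was at 2.28 and 2.55 RPKM in WT and at 2.88 and 2.99 RPKM in KI (limma adjusted p = 0.560), and Colec12, a collectin, had a limma adjusted p of 0.887. In the alternative pathway, Cfp (properdin) was at 9.58 and 7.57 RPKM in WT and at 10.4 and 8.79 RPKM in KI (limma adjusted p = 0.769), and Cfb (factor B) had a limma adjusted p of 0.907. Of the terminal components, C8g alone passed the filter, at 2.45 to 2.58 RPKM.

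The subunits of complement receptor CR3, which binds C3 fragments on microglia, were Itgam, at 3.94 and 3.96 RPKM in WT and 3.91 and 4.78 RPKM in KI (limma adjusted p = 0.785), and Itgb2, at 1.88 and 1.97 RPKM in WT and 2.19 and 2.15 RPKM in KI (limma adjusted p = 0.728). Cd93, at 1.09 to 1.32 RPKM, overlapped between the groups. The most abundant regulators were Clu (clusterin), at 217 and 220 RPKM in WT and 239 and 234 RPKM in KI (limma adjusted p = 0.518), Susd4, at 42.5 to 44.1 RPKM, and Vtn (vitronectin), at 23.8 to 26.0 RPKM. For Clu and Itgb2 the KI values lay wholly above the WT values, and the others named here overlapped. Csmd2, a regulator on chromosome 4 at 7.98 Mb from Kdm1a, was at 5.30 and 6.13 RPKM in WT and at 4.67 and 5.21 RPKM in KI (limma adjusted p = 0.624), lower in KI rather than higher.

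**Figure D3:**
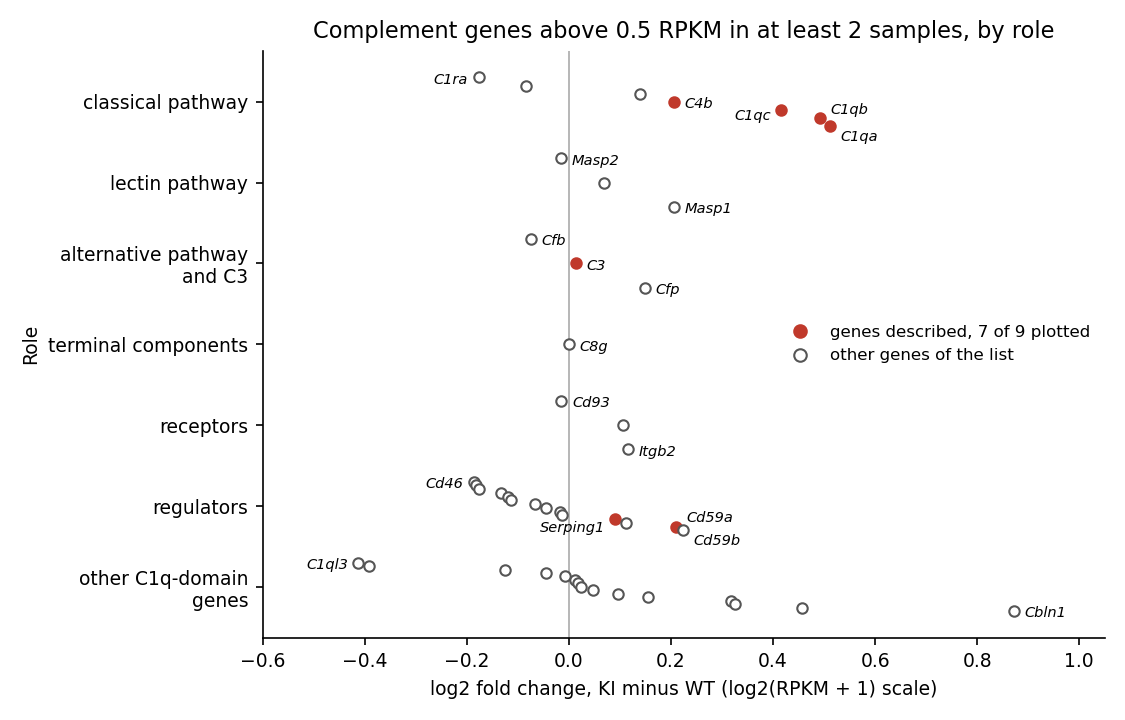
Log2 difference of KI minus WT on the log2(RPKM + 1) scale for each complement gene above the filter, grouped by role on the vertical axis, with the 7 described genes above the filter as filled red points and the other genes of the list as open points. C1qa, C1qb and C1qc (0.42 to 0.51) lie to the right of the other cascade genes, which run from -0.19 to 0.22.

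Because C1q in the brain comes mainly from microglia, its values were set beside 18 microglia markers in the same samples. The summed marker level was 208 and 209 RPKM in WT and 231 and 224 RPKM in KI, a ratio of 1.09 against 1.42 for C1q. In 9 of the 18 markers the KI values were wholly above the WT values (50%, against 24.0% of all genes). In 3 both were below (P2ry12, Gpr34 and Olfml3, 16.7%, against 18.1% of all genes) and in 6 the groups overlapped. The median log2 difference was 0.09, against 0.01 over all genes, and limma called 0, as it did over all genes. At an unadjusted p under 0.05, limma gave 6 of the 18 higher in KI (6.30% of all genes) and 0 lower (3.33% of all genes). The marker lists were chosen with earlier results of these data known, so their counts and shares are a description. In whole tissue, more cells of a type and more RNA per cell cannot be told apart.

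The markers did not move as one. Csf1r, the receptor on which microglia depend for survival, was at 19.2 and 18.5 RPKM in WT and at 20.2 and 20.1 RPKM in KI (limma adjusted p = 0.611). Ctss, the protease cathepsin S, was at 43.0 and 44.2 RPKM in WT and at 50.5 and 53.7 RPKM in KI (limma adjusted p = 0.366). Ranked by log2 difference among these 21 genes, C1qa, C1qb and C1qc were in places 1, 2 and 3. Ly86 (0.38), Fcer1g (0.34), Aif1 (0.30) and Cd68 (0.30) followed, while Cx3cr1 (0.03) and P2ry12 (-0.29) were near or below 0. The order depends on the scale. By ratio of means, the low gene Aif1 (1.37) stood above C1qc (1.36), and Ly86 (1.35) just under it. The geometric mean of the C1q genes divided by that of the 18 markers was 2.61 and 2.68 in WT and 3.25 and 3.65 in KI, a ratio of 1.30 between group means (3.45 ± 0.286 against 2.65 ± 0.046). This ratio depends on which markers are listed, since some moved with C1q (Ly86 at 0.38) and others did not (P2ry12 at -0.29). Whether the number of microglia had a part in the C1q difference was not tested.

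**Figure D4:**
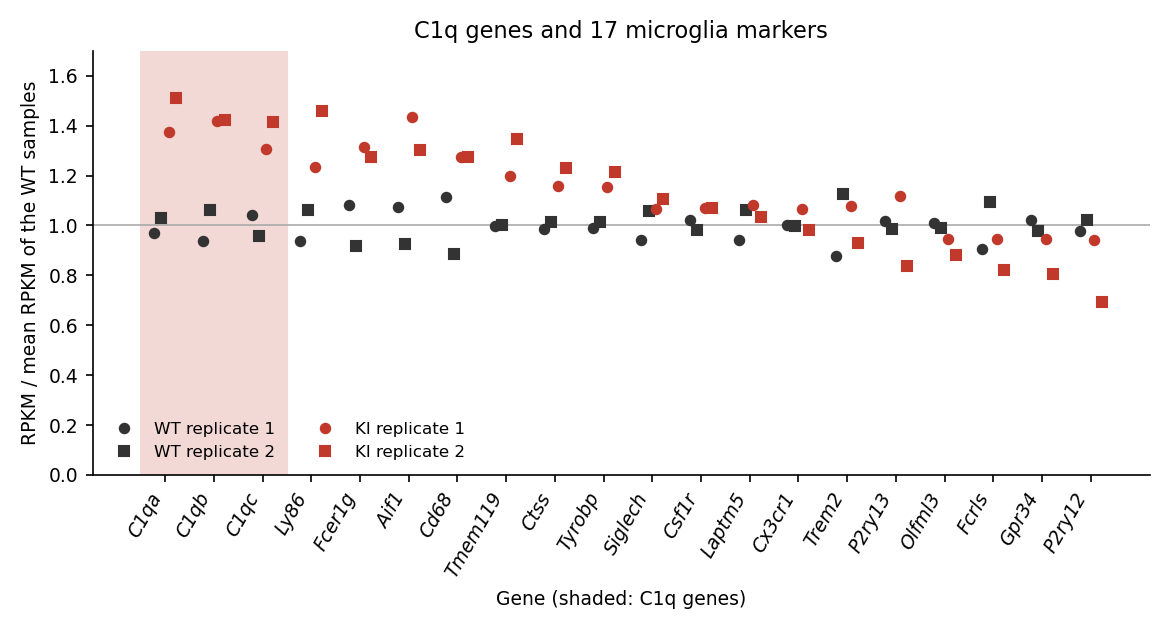
RPKM divided by the mean of the WT samples (vertical axis, no unit) for the C1q genes (shaded) and 17 of the 18 microglia markers, one point per sample (WT black, KI red, circles replicate 1, squares replicate 2), ordered by log2 difference. The KI points of the C1q genes lie above 1.3, those of several markers such as Ly86 and Fcer1g above 1.2, and those of P2ry12 below 1.

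Markers of other cells were also compared. Border macrophage markers were all 7 below the filter and summed to 0.898 to 1.17 RPKM in WT and 1.23 to 1.59 RPKM in KI, a ratio of 1.36, with Pf4 at 0 in both WT samples. Choroid plexus markers summed to 14.1 and 19.7 RPKM in WT and to 60.6 and 16.5 RPKM in KI, with Ttr at 51.3 RPKM in KI replicate 1 and 8.13 to 13.8 RPKM in the other samples, and Kcnj13 at 0 in WT replicate 2. Kl, another gene of that list, was at 4.87 and 5.14 RPKM in WT and at 7.05 and 6.72 RPKM in KI (limma adjusted p = 0.340). Without KI replicate 1, the log2 difference was 0.58 for C1qa, 0.49 for C1qb and 0.47 for C1qc. Astrocyte markers summed to 634 to 654 RPKM in WT and 674 to 684 RPKM in KI, with 4 of the 8 genes wholly above the WT values in KI, 2 wholly below (Aqp4 and Sox9) and 2 overlapping. Endothelial markers summed to 62.5 to 70.4 RPKM in WT and 72.5 to 80.1 RPKM in KI, with 4 of the 7 genes wholly above, 1 below (Tek) and 2 overlapping. Ly6c1, at 20.8 and 22.5 RPKM in WT and 26.5 and 33.1 RPKM in KI (limma adjusted p = 0.450), made up most of the endothelial difference. Limma called 0 genes of either list. At an unadjusted p under 0.05, it gave 1 astrocyte marker higher and 1 lower, and 2 endothelial markers higher and 0 lower. Over all genes the shares were 6.30% higher and 3.33% lower. Pericyte and meningeal markers (7 genes, 44.8 to 49.7 RPKM in WT, 41.7 to 47.7 in KI) and the globin and other erythroid genes (5 genes, 44.9 to 49.4 RPKM in WT, 34.6 to 56.2 in KI) overlapped. Their part in the C1q values was not tested.

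Interferon-induced genes moved in the direction of C1q. The 12 genes summed to 26.3 and 26.6 RPKM in WT and to 37.9 and 51.1 RPKM in KI, a ratio of 1.68. In 11 of the 12 the KI values lay wholly above the WT values (91.7%, against 24.0% of all genes). The median log2 difference was 0.56, against 0.01 over all genes, and limma called 0, as it did over all genes. At an unadjusted p under 0.05, limma gave 9 of the 12 higher in KI (6.30% of all genes) and 0 lower (3.33% of all genes). The interferon list was chosen with earlier results of these data known, so these counts and shares are a description and not a test of the list. Among the most abundant, Stat2, a transcription factor of interferon signalling, was at 8.43 and 8.35 RPKM in WT and at 9.63 and 11.3 RPKM in KI (limma adjusted p = 0.489). Ifit3, an effector that restricts viral RNA, was at 2.90 and 2.60 RPKM in WT and at 4.54 and 7.40 RPKM in KI (limma adjusted p = 0.426). In all 12, KI replicate 2 was above KI replicate 1. The promoters shown above held the interferon core letters in Cd59a and not in C1qb or C1qc, and any relation of interferon-induced genes to the complement genes was not tested.

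Among genes with a mean of at least 5 RPKM, the 5 whose pattern over the 4 samples was most like that of C1q were not complement genes. Of the unlinked genes described, only C4b was high enough to enter this search. Of 9967 genes with a mean of at least 5 RPKM, those nearest to the mean C1q profile, by root mean square difference of centred log2(RPKM + 1), were Fam151a (0.0313), Gm20441 (0.0417), Gm12744 (0.0433), Tmem158 (0.0485) and Zcchc12 (0.0486), against a median of 0.245. Fam151a was at 8.14 and 8.36 RPKM in WT and at 12.2 and 12.4 RPKM in KI, and Zcchc12 was at 14.2 and 13.9 RPKM in WT and at 20.6 and 20.3 RPKM in KI. Fam151a (chr4:106733889-106748292) and the antisense gene Gm12744 (chr4:106587097-106589108) lie near each other on chromosome 4, far from the C1q cluster, and the others lie on chromosomes 10, 9 and X. Of the unlinked complement genes, Cd59a (0.133) and C4b (0.151) were nearer to the C1q profile than Serping1 (0.221) and C3 (0.234). The C1q genes, left out of the search, lay at 0.029 (C1qa), 0.054 (C1qb) and 0.064 (C1qc) from their own mean profile. C1qb and C1qc were thus farther from it than the 5 nearest genes. Over 4 samples, a pattern mostly restates the difference between the groups, so likeness to C1q is a description.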

How the data were processed

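Hippocampal poly(A) RNA of 2 WT and 2 KI samples was sequenced as read pairs. Per the labels and the study's methods, the authors used CASAVA and GSNAP on mm10 and kept uniquely and properly mapped pairs. The authors deposited RPKM per gene of Ensembl release 74, 1 file per sample, with replicates not pooled and genes without reads not listed. The counter, its strand setting and its handling of shared reads were not given in the sources used here. The authors tested with edgeR, kept genes at least 1.5-fold apart at an FDR of 10%, and reported such genes in both directions. The calls made here used another tool and another fold cutoff, so they are not set against the authors' genes.

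RPKM are not counts, so limma 3.58.1 (R 4.3.3) was fitted to log2(RPKM + 1), on the 18436 genes that reached 0.5 RPKM in 2 or more samples. Its empirical Bayes step used a mean-variance trend, and p-values were adjusted by Benjamini-Hochberg. Called genes had an adjusted p under 0.1 and at least 1.2-fold. The limma code was tested on simulated data. Reads were worked out from whole-read steps and exon lengths of GENCODE M21 (GRCm38, the build of mm10), which for all 9 genes gave the length used in the files. Whether a step is 1 read or 1 pair is not known, and the reads served only as a filter and for exact Poisson 95% intervals. Python 3.11.15 with pandas 2.3.3, numpy 2.4.6, scipy 1.17.1 and matplotlib 3.10.9 was used for the rest.

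The genes and lists were chosen with earlier results of these data known. Besides the 9 genes, those named were drawn from Kdm1a and all protein-coding genes above the filter within 0.5 Mb of it, the 3 most abundant genes of each complement role and marker list, those of the complement list without overlap between groups and at least 1.2-fold apart, and the 5 genes nearest to the C1q pattern. Further genes were named after their values were seen, where a count or a paralog called for it, and some genes of the marker lists are not reported here one by one. Alternatives changed the pseudocount, the filter, the scaling, the fold, the variance trend, the replicate block and the samples.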

Additional observations from a re-analysis of the deposited data

How the results depend on the processing

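The count of called genes was 0 and became 1 with at least 10 reads required in every sample, and 20 (17 higher and 3 lower in KI) without the mean-variance trend. None of these was a complement gene, and the count stayed 0 under the other alternatives and for the complement list under all 12. When 1 sample was left out in turn, both counts were 0 throughout. The difference between C1q and the unlinked complement genes, 0.343, was 0.31 with a pseudocount of 0.1, 0.386 without the filter, when C3ar1 and C5ar1 enter, and 0.378 with quantile normalization. It ranged from 0.311 to 0.375 with 1 sample left out. Apart from the added genes, the cause of these shifts was not tested. The log2 differences of C1qa, C1qb and C1qc were positive in all 10 alternatives, 3 of which (both filters and the block) cannot change them (0.445 to 0.579, 0.404 to 0.58 and 0.359 to 0.472), as were those of C4b (0.08 to 0.332) and Cd59a (0.157 to 0.345), whereas C3 (-0.061 to 0.035) and Serping1 (-0.02 to 0.201) changed sign.

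The labels number the replicates 1 and 2 in both groups, but nothing ties samples of the same number, and their deviations from the group means were uncorrelated (-0.025 over 18436 genes). With a replicate block, the difference between C1q and the unlinked genes was 0.343, which a block cannot change in this balanced layout. The count of called genes stayed 0. Depth limits C3, C3ar1, C5ar1 and Cd59a most, with 4 to 41 reads a sample, and 2 samples a group limit every comparison.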

Other observations

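Genes outside the cascade whose proteins carry a C1q domain, and which share that fold but not the complement function, were also listed. Of 22 listed genes, 15 passed the filter, 5 had KI values wholly above those of WT (33.3%, against 24.0% of all genes), 3 had both below (20.0%, against 18.1%) and 7 overlapped. The median log2 difference was 0.02 and limma called 0, with 2 higher and 2 lower at an unadjusted p under 0.05, as were 6.30% and 3.33% of all genes. C1ql2 and C1ql3, secreted synaptic organisers of hippocampal neurons, were the lowest relative to WT. C1ql2 was at 41.8 and 44.0 RPKM in WT and at 30.7 and 34.2 RPKM in KI (ratio 0.757, limma adjusted p = 0.336), and C1ql3 was at 39.0 and 39.2 RPKM in WT and at 25.5 and 33.3 RPKM in KI (ratio 0.751, limma adjusted p = 0.489). Prox1, a marker of dentate granule cells, which also express C1ql2, was at 17.3 and 16.9 RPKM in WT and at 10.2 and 13.1 RPKM in KI (limma adjusted p = 0.405).

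Cbln1, a secreted synaptic organiser, was at 1.28 and 0.777 RPKM in WT and at 2.00 and 3.53 RPKM in KI (ratio 2.69, limma adjusted p = 0.468). Its relative Cbln4 was at 2.34 and 2.15 RPKM in WT and at 2.59 and 4.52 RPKM in KI, with KI replicate 2 apart (limma adjusted p = 0.576). C1qtnf6 was at 0.807 and 0.896 RPKM in WT and at 1.45 and 1.2 RPKM in KI (limma adjusted p = 0.516), and Emilin2 at 0.877 and 0.840 RPKM in WT and at 1.60 and 1.06 RPKM in KI (limma adjusted p = 0.576). The most abundant of the family, C1qtnf4, was at 48.5 and 57.6 RPKM in WT and at 56.8 and 52.6 RPKM in KI, and its groups overlapped.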
